A study of Mus musculus with 6 samples.

Results

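The genes described here are 36 mouse genes of glucose uptake, glycolysis, lactate handling, pyruvate entry into mitochondria, hypoxia signalling and the glyoxalase route. They were chosen by symbol among the 18039 genes of the deposited table, and all 36 had enough counts to be tested. The symbol Aldoa stands on a further row of the table, which held 1 to 11 counts per library, was not tested and is not used. RNA was sequenced in bulk from bone marrow-derived macrophages, cells grown from mouse marrow for 7 days with 20 ng/mL of M-CSF, the cytokine on which macrophages depend. The control group, Ctrl, and the knockout group, KAT7KO, each had 3 libraries, described as biological replicates, and all 6 had the same culture. KAT7, also known as HBO1, is a histone acetyltransferase of the MYST family, and the series title ties it to lactylation, the attachment of lactate to lysines. The labels give neither the strain, age or sex of the mice nor how and in which cells Kat7 was deleted. They also do not say whether each library came from a mouse of its own, so a p-value reflects only how far these 6 libraries scatter.

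Glycolysis splits glucose into pyruvate in the cytosol. Pyruvate is either reduced to lactate by lactate dehydrogenase and exported through monocarboxylate transporters, or oxidised in mitochondria by the pyruvate dehydrogenase complex, which pyruvate dehydrogenase kinases switch off. Many of these genes are targets of hypoxia-inducible factor (HIF), whose alpha subunits are marked for destruction by the EGLN prolyl hydroxylases when oxygen is present. Activated macrophages are known for a high rate of glycolysis, and lactate is the source of the lactyl group in protein lactylation.

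Library totals lay between 19906726 and 20660090 counts. Kat7 fell to 57.3% of Ctrl (95% interval 52.2% to 62.9%; edgeR quasi-likelihood test, adjusted p = 9.63e-07). All 8 macrophage markers, such as Csf1r and Adgre1, were measured, and their summed level was 27199 to 36923 CPM (counts scaled to library size with TMM factors) in Ctrl and 21960 to 22775 CPM in KAT7KO, with Lyz2 as the main part. Lyz2 and Itgam fell and the other 6 did not pass. Markers of cycling cells summed to 96.7 to 102 CPM in Ctrl and 59.7 to 63.5 CPM in KAT7KO, and all 8 fell. B cell markers summed to 4.11 to 5.42 CPM and 8.06 to 9.08 CPM, and stromal and endothelial markers to 755 to 973 CPM and 695 to 710 CPM. Neutrophil markers summed to 6.86 to 6.94 CPM and 10.6 to 12.0 CPM, most of it S100a8 (6.07 and 11.0 CPM on average). Of the others, Cxcr2 averaged 0.551 and 0.0834 CPM, while Mpo, Elane and Camp averaged at most 0.285 CPM. Erythroid and megakaryocyte markers, nearly all of it Pf4, summed to 49.6 to 68.1 CPM and 36.5 to 39.3 CPM. Markers of T and NK, dendritic and mast cells each stayed under 4 CPM in every library. The neutrophil markers Ly6g, Retnlg and S100a9, the erythroid markers Hba-a1 and Hbb-bs, the dendritic cell markers Siglech and Xcr1 and the mast cell marker Ms4a2 were not analysed here. The part of these differences in the results below was not tested. Ctrl replicate 1 stood apart from the other Ctrl libraries. Its mean chi-square per gene was 11.5 and 20.1 against them, whereas the other pair gave 3.79 and the KAT7KO pairs 2.70 to 3.51.

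In KAT7KO macrophages the low-level isozyme genes Aldoc, Eno2 and Pfkm fell most, to 45.9%, 63.2% and 61.6% of Ctrl, while the main isozyme genes of the same enzymes, Aldoa, Eno1 and Pfkl, did not pass the test. Of the 5 genes around pyruvate dehydrogenase, Pdk1 rose to 132% and Pdhb to 123% of Ctrl. Of the 36 genes 13 passed an adjusted p of 0.05 with edgeR's quasi-likelihood test, 4 higher and 9 lower (n = 3 libraries per genotype). That is 36.1%, beside 23.9% of the 12483 genes tested. By direction, 11.1% of the 36 were higher beside 10.7% of all genes, and 25.0% were lower beside 13.2%. The groups did not overlap for 22 of the 36 (61.1%), beside 41.0% of all genes tested. KAT7KO lay above Ctrl for 9 of them (beside 19.9% of all genes) and below for 13 (beside 21.2%). The median log2 fold change was 0.0021 for the 36 genes and 0.0023 for all genes tested, and the median absolute log2 fold change was 0.15 and 0.17. In bulk RNA, fewer cells of a type and less RNA per cell cannot be told apart.

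The counts of calls moved with the libraries used. Leaving out Ctrl replicate 1 gave 9 higher and 10 lower genes, and leaving out Ctrl replicate 2 gave 4 and 5. Leaving out any of the KAT7KO libraries gave 2 or 3 higher and 4 or 5 lower. In the same fits the counts over all genes tested moved too, from 1335 higher and 1652 lower with every library. Without Ctrl replicate 1 there were 1708 and 1820, and without Ctrl replicate 2 there were 834 and 1180. Without KAT7KO replicate 1 there were 715 and 1139, without replicate 2 663 and 1071, and without replicate 3 740 and 1071. Removing a trend of level on gene length gave 10 higher and 8 lower of the genes described here. With that trend removed 62.7% of all calls were higher, against 44.7% without. Aldoc, Eno2, Pfkm, Pfkfb3, Pdk1 and Pdhb kept their calls with each library left out and in 8 of the other 9 settings or more, the exception for Pfkfb3, Pdk1 and Pdhb being a test for a change over 1.2-fold.

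**Figure D1:**
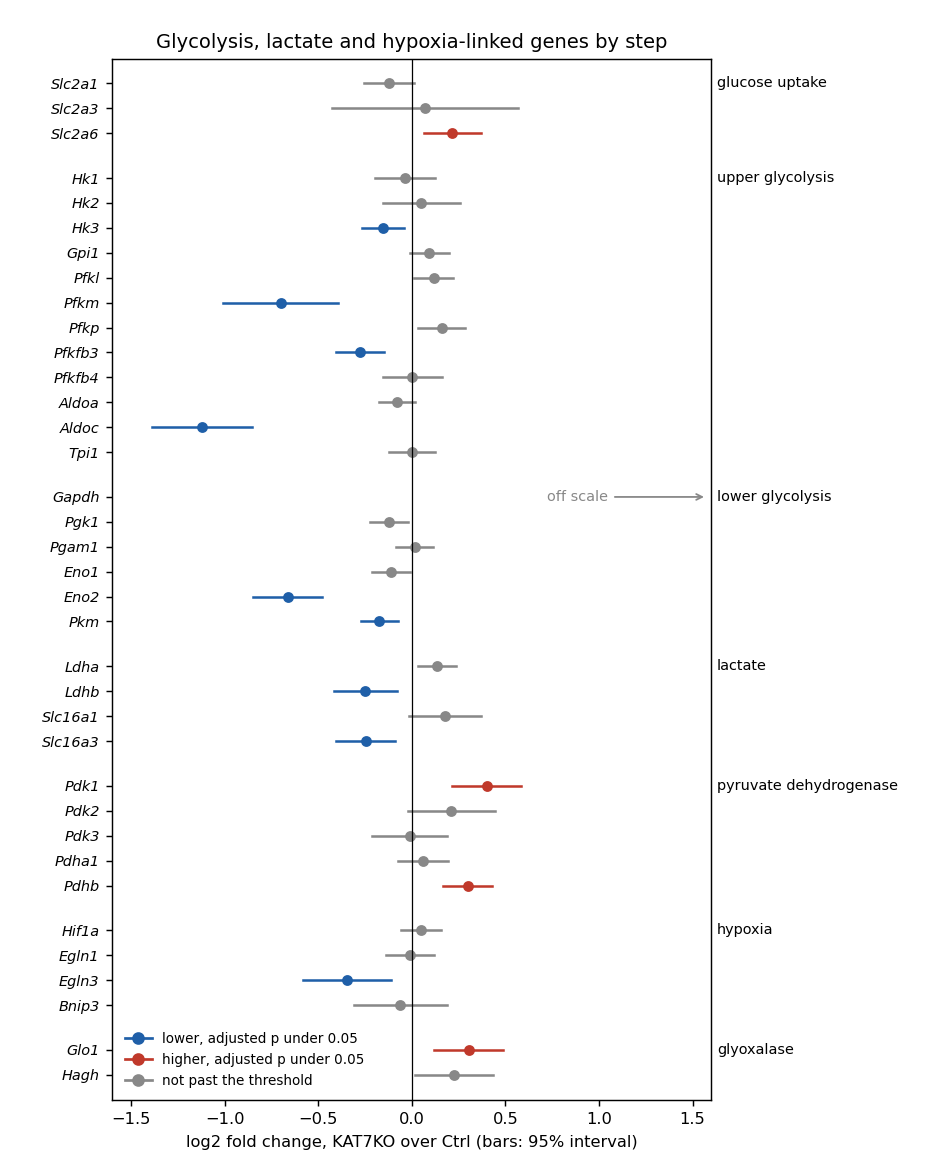
Log2 fold change (KAT7KO over Ctrl) of each gene, ordered along the pathway, with its 95% interval; blue points passed lower, red points higher, and grey points did not pass. Aldoc lies at -1.12, Eno2 at -0.66, Pfkm at -0.70 and Pdk1 at 0.40; Gapdh (2.90) is beyond the axis.

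Glucose enters through the SLC2A transporters. Slc2a1, the main basal glucose transporter, stood at 66.4, 62.6 and 60.3 CPM in Ctrl, against 60.2, 54.6 and 59.2 CPM in KAT7KO. All KAT7KO values lay below all Ctrl values, by a margin smaller than the spread within either group, and the log2 fold change of -0.12 (SE 0.06, adjusted p = 0.182) did not pass. Slc2a3, a high-affinity transporter, was low at 2.40 ± 0.473 CPM in Ctrl, against 2.52 ± 0.541 CPM in KAT7KO (SD, n = 3). Slc2a6, a family member of lysosomal membranes in macrophages, rose from 39.8, 36 and 37.0 CPM to 46.3, 43.2 and 41.5 CPM (adjusted p = 0.0388 for a log2 fold change of 0.22, SE 0.07). The groups did not overlap, but the call was lost without any 1 library other than Ctrl replicate 1 (adjusted p from 0.0585 to 0.173) and with DESeq2 (0.0528), a filter at 5 CPM (0.0571) or upper-quartile factors (0.0532).

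Hexokinases trap glucose as glucose 6-phosphate. Hk3, the hexokinase of myeloid cells, took 90.6% ± 0.704 (SD, n = 3) of the summed hexokinase level per length (FPKM, fragments scaled to gene length and library size) in Ctrl. Its level was 750, 682 and 671 CPM in Ctrl, against 639, 636 and 615 CPM in KAT7KO. The highest value was in Ctrl replicate 1 and the groups did not overlap, with a fall of 0.16 on the log2 scale (SE 0.05, adjusted p = 0.0430). This call was lost without Ctrl replicate 2 or any 1 KAT7KO library (0.0828 to 0.189), with DESeq2 (0.0615) and with the length trend removed (0.0677). Hk1 and Hk2, the widely expressed hexokinases that bind mitochondria, had log2 fold changes of -0.04 and 0.05 (adjusted p = 0.762 and 0.731). Without Ctrl replicate 1, which held the highest Hk2 value of 67.4 CPM, Hk2 was higher in KAT7KO (log2 fold change 0.19, adjusted p = 0.00844). Gpi1, which converts glucose 6-phosphate to fructose 6-phosphate, went from 441 ± 8.19 to 471 ± 19.8 CPM (SD, n = 3; adjusted p = 0.180). With the length trend removed Gpi1 passed as higher (0.00274).

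Phosphofructokinase commits the sugar to glycolysis. Pfkm, its muscle-type subunit, stood at 9.95, 9.04 and 7.15 CPM in Ctrl, against 5.62, 5.27 and 5.21 CPM in KAT7KO. Every KAT7KO value was below the lowest Ctrl value, and the fall was 0.70 on the log2 scale (SE 0.14, adjusted p = 0.00298). The liver-type Pfkl and the platelet-type Pfkp were above Ctrl in every KAT7KO library without passing. Pfkl went from 112 ± 0.998 to 121 ± 2.98 CPM (log2 fold change 0.12, adjusted p = 0.0961) and Pfkp from 87.8 ± 6.29 to 98.0 ± 0.178 CPM (log2 fold change 0.16, adjusted p = 0.0615; SD, n = 3). Both passed without Ctrl replicate 1 (adjusted p = 0.0351 for Pfkl and 0.000231 for Pfkp) and with the length trend removed (0.00138 and 6.45e-05).

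PFKFB enzymes make and break fructose 2,6-bisphosphate, the strongest activator of phosphofructokinase. Pfkfb3, the form with the highest kinase activity and a HIF target, fell from 84.4, 77.8 and 77.0 CPM to 62.6, 66.6 and 68.4 CPM. The groups were well apart (adjusted p = 0.00469 for a log2 fold change of -0.28, SE 0.06). Pfkfb4 did not pass, at 40.4 ± 2.09 CPM in Ctrl, against 40.5 ± 2.85 CPM in KAT7KO (SD, n = 3; 95% interval of the log2 fold change -0.15 to 0.16).

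Aldolase cleaves fructose 1,6-bisphosphate. Aldoc, the brain-type isozyme, held 10.8, 12.1 and 11.4 CPM in Ctrl, against 4.81, 4.97 and 5.96 CPM in KAT7KO. This was the steepest fall of the 36 genes (log2 fold change -1.12, SE 0.12, 95% interval -1.39 to -0.86, adjusted p = 2.73e-05). Aldoa, the main isozyme, was at 1266, 1228 and 1200 CPM in Ctrl, against 1171, 1162 and 1162 CPM in KAT7KO. Its groups were also apart, but its log2 fold change of -0.08 (95% interval -0.18 to 0.02, adjusted p = 0.210) did not pass. The intervals of the aldolase genes did not overlap each other. Tpi1, which interconverts the triose phosphates, had a log2 fold change of 0.00096 (95% interval -0.12 to 0.12).

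**Figure D2:**
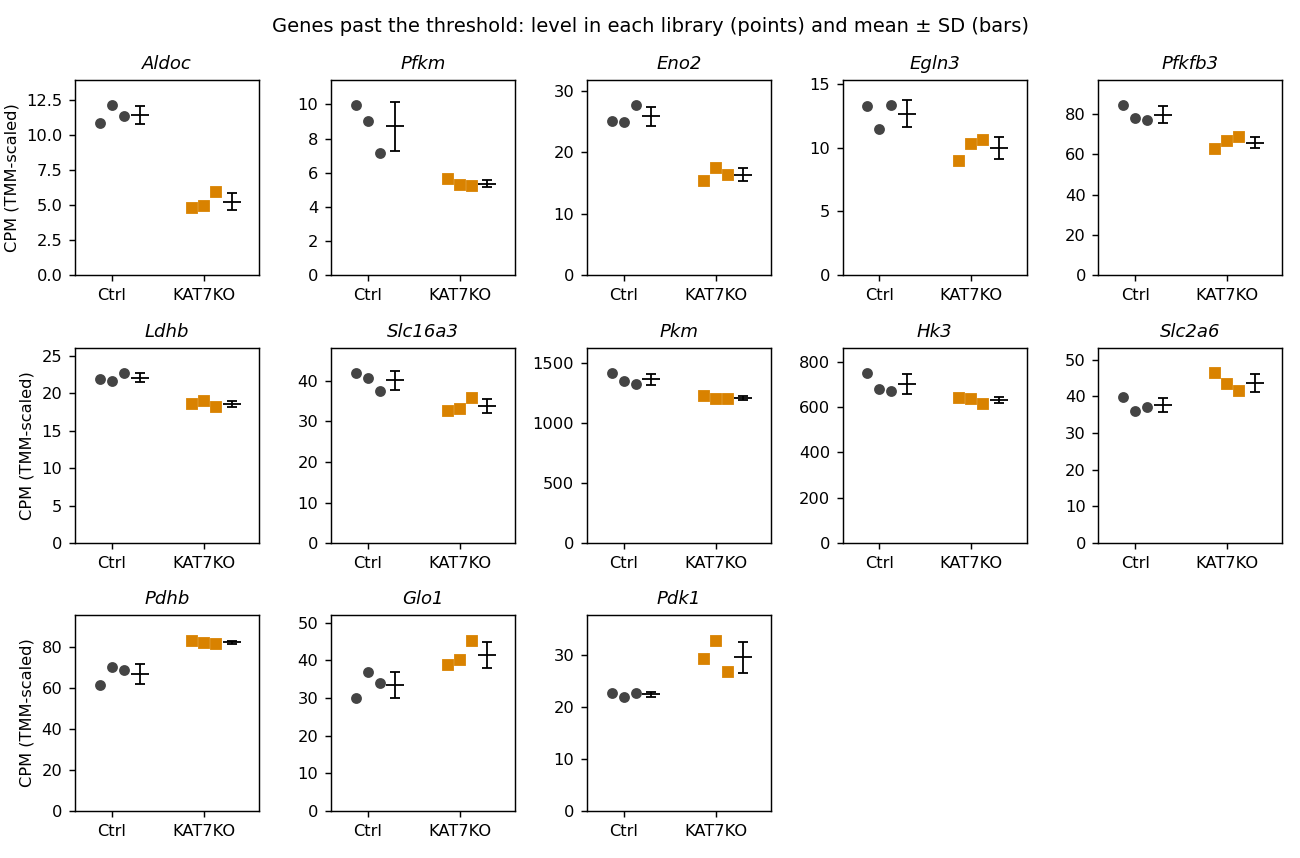
Level in each library (circles Ctrl, squares KAT7KO; CPM after TMM scaling, axes from 0) of the 13 genes that passed, with mean ± SD of 3 libraries per genotype as bars. The groups are apart in every panel, with the largest ratio for Aldoc (11.4 against 5.25 CPM on average) and a small one for Pkm (1361 against 1207 CPM).

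Gapdh, the enzyme that oxidises glyceraldehyde 3-phosphate and a common reference gene, has uncertain values in this table. Its counts were 58, 445 and 58 in Ctrl and 1815, 1256 and 993 in KAT7KO. Those are 0.699, 5.25 and 0.679 FPKM in Ctrl and 21.8, 15.0 and 12.1 FPKM in KAT7KO, whereas Pgk1 and Tpi1, the enzymes on either side of it, stood between 134 and 166 FPKM in all 6 libraries. The coefficient of variation of Gapdh among the Ctrl libraries was 120%, and 0 of the 9406 genes with a mean over 5 CPM in Ctrl exceeded it (median 7.12%). Its log2 fold change of 2.90 was the largest of all genes tested, with a 95% interval of 0.56 to 5.23 and an adjusted p of 0.0870. Leaving out Ctrl replicate 2 gave 4.58 (adjusted p = 0.000312), DESeq2 gave an adjusted p of 0.0180, and the authors' deposited table lists 2.90 with an adjusted p of 0.0198. In the GENCODE M21 transcripts of build GRCm38, 53.1% of the 100-base stretches of Gapdh recur in transcripts of 86 other genes, 79 of them processed pseudogenes. Gm10358 and Gm3839, the closest of these with a row in the table, held 1 to 7 counts per library. How reads that match several genes were counted is not given in the sources used here, so the part of the copies in these values was not tested.

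Gapdh was not alone in sharing sequence. More than 30% of 100-base stretches were also shared for Pgk1 (67.0%), Pgam1 (39.7%), Eno1 (39.5%, nearly all with Eno1b) and Bnip3 (31.6%), and their values are uncertain to that extent. For 18 of the 36 genes, Aldoc, Eno2, Pfkfb3 and Pdk1 among them, no stretch was shared, and for the remaining 13 at most 14.2% was.

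The lower steps yield ATP and pyruvate. Pgk1, phosphoglycerate kinase, stood at 356, 374 and 369 CPM in Ctrl, against 335, 330 and 345 CPM in KAT7KO, apart but not past the threshold (log2 fold change -0.12, adjusted p = 0.0751). It passed as lower without Ctrl replicate 1 (adjusted p = 0.00134), with upper-quartile factors (0.0477), with the filter at 5 CPM (0.0384) and with the length trend removed (0.0177). Pgam1, phosphoglycerate mutase, overlapped between the groups at 573 ± 9.88 and 579 ± 18.0 CPM (SD, n = 3). Enolase makes phosphoenolpyruvate. Eno2, the neuronal form, fell from 25.2, 24.9 and 27.7 CPM to 15.3, 17.4 and 16.4 CPM, with a wide gap between the groups (adjusted p = 9.85e-05 for a log2 fold change of -0.66, SE 0.09). Eno1, the widespread form, had a log2 fold change of -0.11 (95% interval -0.21 to -0.01, adjusted p = 0.112), and this interval lies apart from that of Eno2 (-0.85 to -0.48). Pkm, the pyruvate kinase gene of macrophages, fell from 1414, 1348 and 1321 CPM to 1224, 1199 and 1198 CPM (adjusted p = 0.0143 for a log2 fold change of -0.17, SE 0.05). All KAT7KO values of Pkm were below Ctrl, yet its call was lost without Ctrl replicate 2 or any 1 KAT7KO library (0.0595 to 0.0898). The spliced forms of Pkm cannot be told apart in gene totals.

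**Figure D3:**
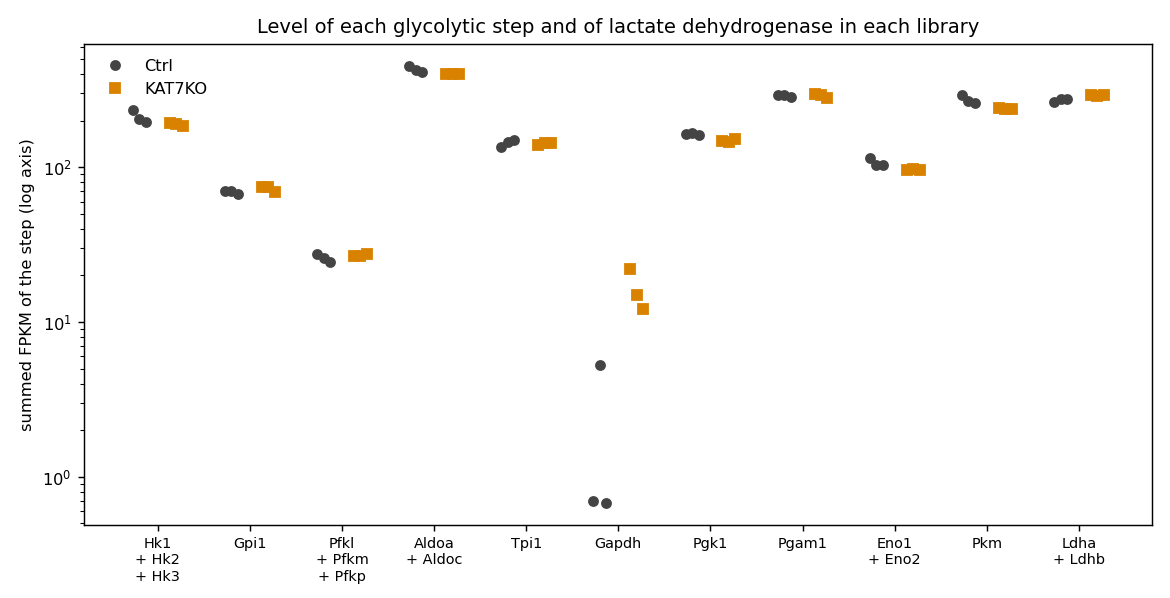
Summed FPKM of the genes of each glycolytic step and of lactate dehydrogenase in each library (log axis; circles Ctrl, squares KAT7KO). Every step but Gapdh lies within a narrow band, such as 398 to 452 FPKM for aldolase, while Gapdh runs from 0.679 to 21.8 FPKM.

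Lactate dehydrogenase is a tetramer of LDHA and LDHB subunits, of which LDHA-rich forms favour lactate formation. Ldha stood at 803, 866 and 873 CPM in Ctrl, against 941, 920 and 930 CPM in KAT7KO, with every KAT7KO library above Ctrl. Its log2 fold change of 0.13 (SE 0.05, adjusted p = 0.0544) just missed the threshold. It passed as higher with DESeq2 size factors (0.0475), limma-voom (0.0396), the length trend removed (0.00237) and without Ctrl replicate 1 or Ctrl replicate 3 (0.0155 to 0.0263). The authors' deposited table lists it at an adjusted p of 0.0460. Ldhb fell from 21.9, 21.6 and 22.7 CPM to 18.6, 18.9 and 18.2 CPM (adjusted p = 0.0337 for a log2 fold change of -0.25, SE 0.08). The groups were apart, and the call was lost without any 1 library other than Ctrl replicate 1 (0.0711 to 0.118), with DESeq2 (0.0710), with no filter on low counts (0.0516) and with the replicate number as a block (0.0520).

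Monocarboxylate transporters carry lactate across the plasma membrane. Slc16a3 (MCT4), the export form of glycolytic cells and a HIF target, fell from 41.9, 40.7 and 37.6 CPM to 32.4, 33.1 and 35.8 CPM (adjusted p = 0.0257 for a log2 fold change of -0.25, SE 0.07). Its highest KAT7KO value came close to its lowest Ctrl value, and the call was lost without Ctrl replicate 2, KAT7KO replicate 1 or KAT7KO replicate 2 (0.0839 to 0.107) and with the length trend removed (0.0669). Slc16a1 (MCT1), which carries lactate in either direction, overlapped between the groups at 27.5 ± 2.71 and 31.0 ± 2.43 CPM (mean ± SD of 3 libraries; adjusted p = 0.170 for a log2 fold change of 0.18). It passed as higher without Ctrl replicate 1 (0.0252) and with the length trend removed (0.0345).

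Shares within each isozyme group were taken from FPKM, which allows genes of different length to be compared, and carry no test. Aldoc made up 0.757%, 0.872% and 0.837% of aldolase in Ctrl and 0.365%, 0.380% and 0.456% in KAT7KO. Eno2 was 4.81%, 5.09% and 5.61% of enolase in Ctrl and 3.34%, 3.75% and 3.63% in KAT7KO. Pfkm was 11.1%, 10.4% and 8.63% of phosphofructokinase in Ctrl and 6.25%, 5.89% and 5.66% in KAT7KO. In all 3 groups the share was lower in every KAT7KO library than in any Ctrl library. Ldhb went likewise from 5.21% ± 0.226 to 4.04% ± 0.105 of lactate dehydrogenase (SD, n = 3). Hexokinase went the other way, with larger shares of its minor genes Hk1 and Hk2 in every KAT7KO library. Hk1 went from 4.88% ± 0.348 to 5.25% ± 0.109 and Hk2 from 4.49% ± 0.427 to 5.15% ± 0.0833. Hk3, the main form, went from 90.6% ± 0.704 to 89.6% ± 0.0279, with all KAT7KO libraries below Ctrl. Among the lactate transporters, Slc16a3 held the larger share in Ctrl (54.9% ± 1.10) and less than Slc16a1 in KAT7KO (47.6% ± 1.98). Slc2a6 went from 39.0% ± 0.688 to 44.6% ± 1.54 of the 3 glucose transporter genes and Pfkfb3 went from 56.0% ± 0.885 to 51.2% ± 2.85 of its pair. The minor isozymes were a small part of each sum. Summed phosphofructokinase was 26.1 ± 1.54 FPKM in Ctrl and 26.9 ± 0.419 FPKM in KAT7KO, and aldolase 429 ± 20.7 and 399 ± 1.37 FPKM (SD, n = 3). Enolase was 107 ± 6.41 and 96.5 ± 1.31 FPKM, and lactate dehydrogenase 272 ± 6.07 and 291 ± 2.96 FPKM. The groups overlapped for phosphofructokinase, were lower in KAT7KO for aldolase and enolase, and were higher for lactate dehydrogenase.

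**Figure D4:**
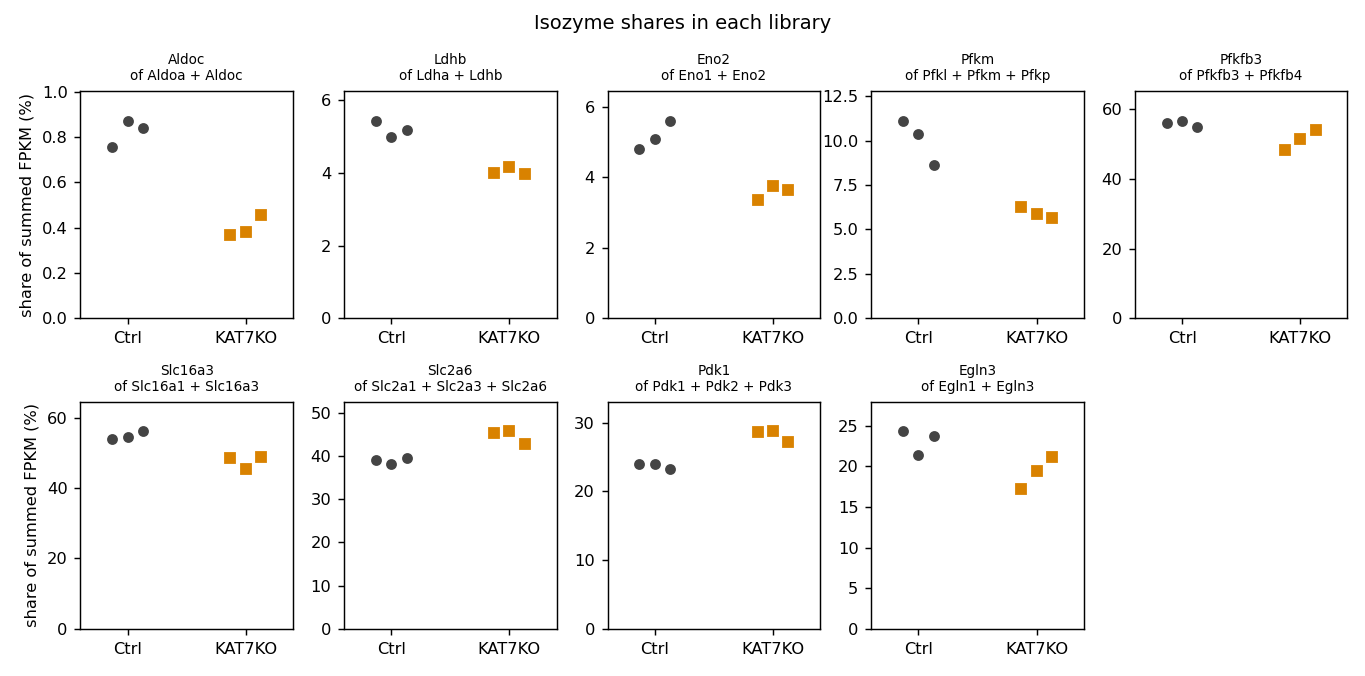
Share (%) of the named gene in the summed FPKM of its isozyme group in each library (circles Ctrl, squares KAT7KO; axes from 0). The 9 genes shown were picked from those that passed the test on their levels, and in all 9 panels the groups are apart. Aldoc, Ldhb, Eno2 and Pfkm, at most 11.1% of their groups in Ctrl, take smaller shares in KAT7KO, and Slc2a6 and Pdk1 take larger ones. Hk3, which passed and is not shown, took a smaller share of hexokinase in KAT7KO, and the minor Hk1 and Hk2 took larger ones. The shares of Slc2a3, Pfkl and Pdk2, not shown, overlapped.

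Of the 5 genes around pyruvate dehydrogenase 2 rose and 3 did not pass (40.0% called, beside 23.9% of all genes tested). Pdhb, the E1 beta subunit, went from 61.2, 70.3 and 68.8 CPM to 82.8, 81.8 and 81.5 CPM (adjusted p = 0.00316 for a log2 fold change of 0.30, SE 0.06). Its KAT7KO values were nearly equal and all above Ctrl. Pdha1, the E1 alpha subunit that is switched off by phosphorylation, overlapped at 59.3 ± 3.47 and 61.8 ± 1.54 CPM (mean ± SD of 3 libraries; adjusted p = 0.510 for a log2 fold change of 0.06). Pdk1, a kinase that inhibits the complex and a HIF target, rose from 22.8, 22.0 and 22.7 CPM to 29.3, 32.8 and 26.8 CPM. The Ctrl values lay close together and all KAT7KO values above them (adjusted p = 0.00405 for a log2 fold change of 0.40, SE 0.09). Its share of the 3 kinase genes went from 23.7% ± 0.444 to 28.2% ± 0.911 of FPKM. Pdk2 had a log2 fold change of 0.21 (SE 0.11, adjusted p = 0.178), with KAT7KO above Ctrl in every library, and Pdk3, the kinase gene of highest level per length (6.39 FPKM in Ctrl), of -0.01 (95% interval -0.21 to 0.19).

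Of the 4 hypoxia genes 1 fell and 3 did not pass (25.0% called, beside 23.9% of all genes tested). Hif1a, the HIF-1 alpha subunit, was at 108, 105 and 108 CPM in Ctrl, against 108, 115 and 110 CPM in KAT7KO. The groups overlapped (log2 fold change 0.05, 95% interval -0.06 to 0.16, adjusted p = 0.517), and only with the length trend removed did Hif1a pass, as higher (0.0310). Egln1, the main oxygen-sensing hydroxylase, had a log2 fold change of -0.01 (95% interval -0.14 to 0.12). Egln3, a hydroxylase that HIF itself induces, fell from 13.2, 11.4 and 13.3 CPM to 8.98, 10.2 and 10.6 CPM (adjusted p = 0.0332 for a log2 fold change of -0.35, SE 0.11). Its groups were apart by less than 1 CPM, and the call was lost with DESeq2 (0.0527) and without Ctrl replicate 3 or any 1 KAT7KO library (0.0598 to 0.137). Bnip3, a mitophagy receptor and HIF target, overlapped at 13.8 ± 2.23 and 13.2 ± 0.663 CPM (SD, n = 3; adjusted p = 0.739).

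HIF binds the core ACGTG or GCGTG, and promoter stretches of 8 genes, chosen after their values were seen so that both directions and genes that did not pass stand side by side, are shown with each core on either strand in capitals. They are RefSeq sequences of build GRCm38.p6, 5′ to 3′ on the strand of the gene, at the match nearest before a listed start, and the build differs from the GRCm39 named by the submitters. Pfkfb3, Slc16a3, Egln3 and Aldoc fell, Pdk1 rose, and Ldha, Pgk1 and Bnip3 did not pass. They lie at chr2:11502116-11502165 (minus strand, Pfkfb3), chr11:120949017-120949066 (plus, Slc16a3), chr12:54204075-54204124 (minus, Egln3), chr11:78324136-78324185 (plus, Aldoc), chr2:71873123-71873172 (plus, Pdk1), chr7:46845747-46845796 (plus, Ldha), chrX:106186946-106186995 (plus, Pgk1) and chr7:138909515-138909564 (minus, Bnip3).
Pfkfb3: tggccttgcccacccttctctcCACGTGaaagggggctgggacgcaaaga
Slc16a3: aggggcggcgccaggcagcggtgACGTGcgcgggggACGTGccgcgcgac
Egln3: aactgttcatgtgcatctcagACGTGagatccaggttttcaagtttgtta
Aldoc: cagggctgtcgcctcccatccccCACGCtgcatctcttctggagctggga
Pdk1: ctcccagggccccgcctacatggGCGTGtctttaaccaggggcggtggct
Ldha: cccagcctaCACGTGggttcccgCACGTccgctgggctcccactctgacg
Pgk1: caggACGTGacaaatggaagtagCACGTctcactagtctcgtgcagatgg
Bnip3: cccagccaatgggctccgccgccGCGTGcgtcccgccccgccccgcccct
In Pfkfb3 the core is part of CACGTG, the E-box read by MYC and other factors, as is the first of the marked stretches shown for Ldha. Of the 35 genes of the set with a listed promoter (250 bases before to 50 after a start), 31 held a core on either strand (88.6%), against 67.3% of 9756 tested genes and 46.7% of all 27025 genes with a promoter. A gene counted if any of its listed promoters held a core, and the 35 genes had 50 promoters, beside 32851 for the 27025. The part of this difference in the shares was not tested. A core was found in 8 of the 9 genes that fell, 3 of the 4 that rose and 20 of the 22 that did not pass. The hexamer CACGTG was in 7 of the 35 (20.0%), against 11.9% of the tested genes. No core was in the listed promoters of Eno2, Gpi1, Glo1 or Tpi1, and Slc2a3 was not matched. A match is a description of letters, not a bound site.

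The glyoxalases clear methylglyoxal, a by-product of glycolysis, through S-lactoylglutathione to D-lactate. Glo1, which makes S-lactoylglutathione, rose from 29.96, 36.79 and 33.88 CPM to 38.8, 40.2 and 45.2 CPM (adjusted p = 0.0214 for a log2 fold change of 0.30, SE 0.09). The lowest KAT7KO value was just above the highest Ctrl value, and the call was lost without KAT7KO replicate 2 or 3 (0.0582 or 0.123). Hagh, which releases D-lactate from it, stood at 22.6, 26.5 and 30.7 CPM in Ctrl, against 31.8, 30.2 and 31.2 CPM in KAT7KO, overlapping through Ctrl replicate 3. Its log2 fold change of 0.23 (SE 0.10, adjusted p = 0.109) passed only with that library left out (0.34, adjusted p = 0.00965).

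Genes next to this pathway were followed in 11 lists, with 99 genes tested, of which 18 were higher and 8 lower (26.3% called, beside 23.9% of all genes; 18.2% higher beside 10.7%, and 8.08% lower beside 13.2%). The median log2 fold change was 0.08. Among 6 tested genes of lactate and pyruvate transport and dehydrogenation 3 rose and 3 did not pass, and without Ctrl replicate 3 there were 5 higher. Mpc1, a subunit of the mitochondrial pyruvate carrier, went from 54.9 ± 4.50 to 78.3 ± 4.55 CPM (mean ± SD of 3 libraries; adjusted p = 0.000146 for a log2 fold change of 0.51), Slc16a7 (MCT2) rose by 0.31 and Emb, an accessory protein of these transporters, by 0.26. Mpc2, the partner of Mpc1, was looked at after its value was seen and had a log2 fold change of 0.20 (adjusted p = 0.167). Of 6 other tested genes of the pyruvate dehydrogenase complex 0 passed with edgeR (beside 23.9% of all genes), with DESeq2 or with limma-voom. With edgeR 1 was higher at an unadjusted p under 0.05. With the length trend removed or without Ctrl replicate 1, 1 of them passed as higher, and Dld, its E3 subunit, had a log2 fold change of 0.05.

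Among 9 tested HIF regulators 1 fell and 1 rose (22.2% called, beside 23.9% of all genes). Epas1, which encodes HIF-2 alpha, fell from 304 ± 25.7 to 236 ± 6.23 CPM (mean ± SD of 3 libraries; adjusted p = 0.000583 for a log2 fold change of -0.37). Egln2, another prolyl hydroxylase, rose by 0.20 (adjusted p = 0.0404), a call lost without Ctrl replicate 2 or any 1 KAT7KO library (0.0667 to 0.161), with the filter at 5 CPM (0.0635) and with upper-quartile factors (0.0599). Of 20 other tested HIF targets 3 rose and 3 fell. Without Ctrl replicate 1 there were 5 higher and 5 lower, and with the length trend removed 7 and 5. Plod2 and P4ha2, which encode collagen-modifying hydroxylases, fell by 0.66 and 0.82 on the log2 scale, while Vegfa, the angiogenic growth factor, and Bnip3l, a mitophagy receptor, rose by 0.31 and 0.25.

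The other metabolic lists gave few calls each, apart from the tricarboxylic acid cycle genes. Shares called were 20.0% for serine, 33.3% for gluconeogenesis, 12.5% for pentose phosphate and 16.7% for methylglyoxal and lactoyl handling, beside 23.9% of all genes. Phgdh, the first enzyme of serine synthesis from a glycolytic intermediate, went from 28.1 ± 1.73 to 50.9 ± 1.27 CPM (mean ± SD of 3 libraries; adjusted p = 1.65e-06 for a log2 fold change of 0.86), the only one of 5 tested serine genes that passed. With the length trend removed 2 serine genes were higher, and without Ctrl replicate 3 there was also 1 lower. Pck2, the mitochondrial enzyme that makes phosphoenolpyruvate, rose by 0.69 (1 of 3 gluconeogenesis genes), and Taldo1, transaldolase, by 0.26 (1 of 8 pentose phosphate genes). The pentose phosphate count was 3 without Ctrl replicate 1, with DESeq2 size factors, with limma-voom and with the length trend removed, and 2 without Ctrl replicate 3, with DESeq2 and with the replicate block. Among 6 tested genes of methylglyoxal and lactoyl handling, Aars rose by 0.28 (adjusted p = 0.000869); it encodes alanyl-tRNA synthetase, which in human cells has also been described as a lysine lactyltransferase. In that list 2 passed as higher without Ctrl replicate 3 and 3 with the length trend removed. In the tricarboxylic acid cycle list, Sdhb was up by 0.25, Mdh1 by 0.23 and Sdhd by 0.22, and Suclg2 had a log2 fold change of -0.53. Of its 17 genes 5 rose and 2 fell, 29.4% and 11.8% beside 10.7% and 13.2% of all genes (41.2% called beside 23.9%). These counts moved with the library left out. They were 1 higher and 1 lower without KAT7KO replicate 1 or KAT7KO replicate 2, and 2 and 1 without KAT7KO replicate 3. Without Ctrl replicate 2 they were 3 and 1, and without Ctrl replicate 1 they were 6 and 5. The counts over all genes moved too. Higher calls went from 1335 to 715, 663 and 740 without KAT7KO replicates 1, 2 and 3. Without Ctrl replicate 2 there were 834, and without Ctrl replicate 1 there were 1708. The cycle counts were 8 and 1 with the length trend removed, 3 and 3 with the filter at 5 CPM and 4 and 1 with DESeq2. Glycogen genes gave 1 higher and 1 lower of 6 (33.3% called), with log2 fold changes of 0.19 for Ugp2 and -0.23 for Pygb. Other glycolytic isozymes and regulators gave 1 and 1 of 13 (15.4% called). Their log2 fold changes were 0.25 for Pgp, which clears side products of glycolysis, and -0.34 for Tigar, a fructose bisphosphatase. Of the 21 genes in these lists that were named as called, 14 kept their calls with each library left out. The calls of Pgp, Tigar, Egln2, Ugp2, Pygb, Mdh1 and Sdhd did not hold with each library left out (adjusted p from 0.0511 to 0.161 where lost).

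**Figure D5:**
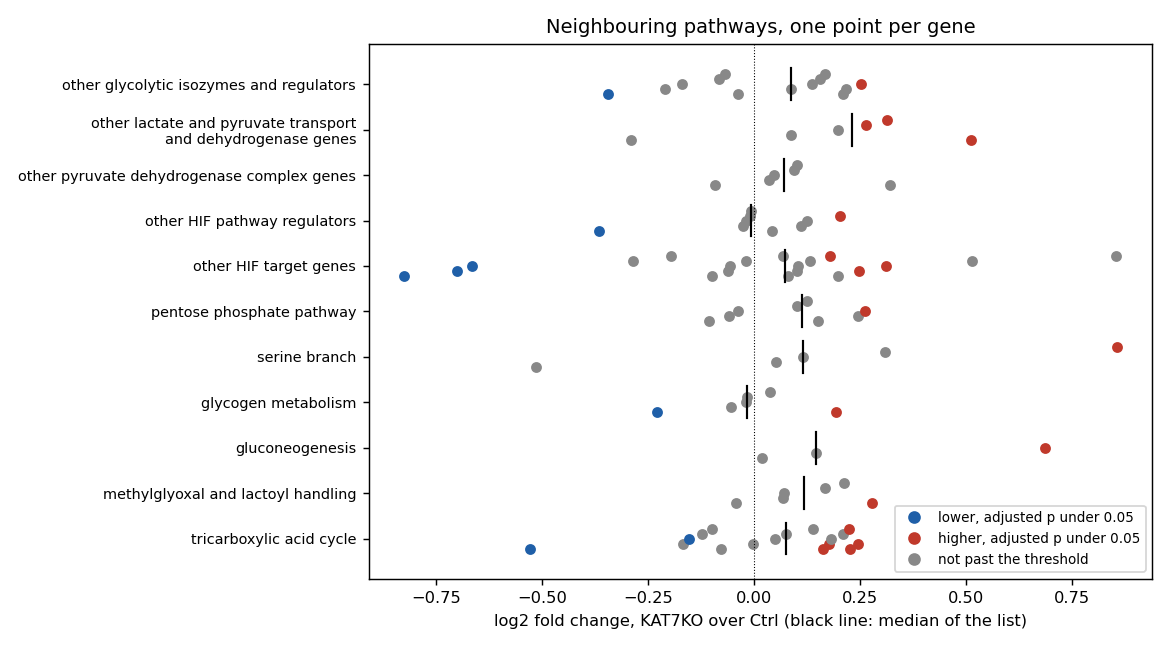
Log2 fold change (KAT7KO over Ctrl) of the tested genes of 11 neighbouring lists, with the list's median as a black line; red and blue points passed higher and lower, grey points did not pass. Phgdh (0.86), Pck2 (0.69) and Mpc1 (0.51) stand out to the right among the genes that passed, and P4ha2 (-0.82) to the left.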

How the data were processed

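All values came from 1 table. The authors deposited in it whole-number counts, in 1 column per library. The FPKM columns are, per the file headers, the authors' values per gene length and library size. The table also holds the authors' log2 fold changes and p-values (raw and adjusted), deposited for KAT7KO over Ctrl. The submitters' processing notes list FastQC, fastp, HISAT2, featureCounts, DESeq2 and, as build, GRCm39, with no versions or roles. The strand setting and the treatment of reads matching several genes were not given in the sources used here.

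Groups and replicate numbers came from the sample titles. The quasi-likelihood test of edgeR 4.0.16 (R 4.3.3; robust glmQLFit, then glmQLFTest) was run on the 12483 genes that passed filterByExpr, with TMM factors, with Benjamini-Hochberg adjustment over all of them and a threshold of 0.05. SEs are the log2 fold change over the square root of F, and intervals are at 95%. A count of 3 is 0.145 to 0.152 CPM. All replicate pairs differed by more than sampling noise. The fit was also run on simulated counts, and the outcome is not reported here. Alternatives were other scaling factors, filters, DESeq2 1.42.0, limma-voom (limma 3.58.1), glmTreat, a replicate block, removal of a loess trend on gene length (span 0.5) and each library left out. The genes and lists were chosen with earlier results of these data known. All 36 genes were named, and from each neighbouring list up to 4 that passed in order of p, or else the gene of highest level. Shared sequence was counted as the 100-base stretches of a gene's protein-coding transcripts found on either strand in transcripts of other genes.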

Additional observations from a re-analysis of the deposited data

How the results depend on the processing

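Of the 13 genes called, 3 (Aldoc, Eno2 and Pfkm) kept their calls in all 15 alternatives, and 6 kept them in all but the test for a change over 1.2-fold (glmTreat). No call changed direction. That test left 199 higher and 641 lower of all genes, 0 higher (2 at an unadjusted p under 0.05) and 3 lower of the 36, and 3 higher and 2 lower of the neighbouring genes. Removing the length trend gave 2554 higher genes in all, 10 of the 36 and 32 of the neighbouring genes; the cause was not tested. Leaving out 1 library gave 663 to 1708 higher and 1071 to 1820 lower of all genes, 2 to 9 higher and 4 to 10 lower of the 36, and 10 to 25 higher and 4 to 13 lower of the neighbouring genes. DESeq2 gave 4 higher and 6 lower of the 36, and the authors' deposited table lists 5 and 6, of which 3 and 6 are shared with the edgeR calls. Signs turned, without a call in the turned direction, for 9 genes with log2 fold changes near 0. With 1 library left out the ranges were -0.0861 to 0.222 for Slc2a3, -0.126 to 0.0545 for Hk1, -0.0292 to 0.194 for Hk2, -0.0468 to 0.0571 for Pfkfb4, -0.0623 to 0.0533 for Tpi1, -0.00446 to 0.0417 for Pgam1, -0.0749 to 0.0412 for Pdk3, -0.0374 to 0.0294 for Egln1 and -0.160 to 0.0742 for Bnip3. Upper-quartile factors gave -0.0132 for Pfkfb4, -0.0156 for Tpi1 and -0.00184 for Pgam1, and the filter at 5 CPM gave -0.0162, -0.0183 and -0.00468. Removing the length trend gave 0.0708 for Hk1, -0.0122 for Pgam1 and 0.0271 for Egln1. The replicate block gave 4 higher and 7 lower of the 36, and Hk3 (adjusted p = 0.0596) and Ldhb (0.0520) lost their calls. No pairing by replicate number was seen in the levels: deviations from the group means correlated at -0.004, 0.006 and 0.021 for libraries of the same number, and not every library correlated best with its own number. With 3 libraries per group this cannot tell whether libraries of the same number were matched, which the labels do not say. On counts instead of FPKM the isozyme shares moved the same way except for Pdk2, whose groups overlapped on both scales. Depth limits the genes of lowest level, such as Slc2a3, whose interval is the widest after Gapdh.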
